A study of Homo sapiens with 9 samples.

Results

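Gene expression was compared between cells that received an siRNA against P300 (si_P300) and cells that received a negative control siRNA (NC), both collected 48 hours after transfection. The comparison uses 6 of the study's 9 RNA-seq libraries, 3 labelled biological replicates in each group, with the groups taken from the siRNA named in the labels, and covers all expressed genes. The remaining 3 libraries were transfected to knock down CSNK2B, the beta subunit of casein kinase CK2 (si_CSNK2B). They enter the shared gene filter, scaling and estimate of spread, and 1 direct comparison with si_P300. Some of their levels and list medians are given beside those of si_P300. All groups carry the label NCI-H69, a cell line derived from small cell lung cancer, grown in RPMI 1640 medium with fetal bovine serum, and no other treatment is named. The siRNA sequences are not used here, and each group rests on 1 named siRNA treatment, so effects of the target and of the sequence used cannot be told apart. The labels do not say whether replicates were transfected on separate days, so a p-value measures only the spread between these libraries.

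P300, encoded by EP300, is a lysine acetyltransferase that acts as a coactivator at promoters and enhancers, together with its close relative CBP, encoded by CREBBP. Both are recruited by sequence-specific factors such as the AP-1, ATF and interferon-regulated families and acetylate histones, including lysine 27 of histone H3, and many other proteins. Transcripts of genes that depend on such factors are therefore a usual readout of the loss of either enzyme, as background and not as a result here.

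Total counts were 17478059, 14330010 and 16156741 in si_P300 replicates 1 to 3 and 17784372, 17688201 and 18286372 in NC replicates 1 to 3, so that a count of 0 allows 0.165 to 0.207 CPM (3 counts, counting error only). Levels are given per library, in the order of replicates 1, 2 and 3, as CPM (counts relative to the library total after TMM scaling), and log2 fold changes of si_P300 over NC with their standard errors come from edgeR's quasi-likelihood test with Benjamini-Hochberg adjustment over all tested genes. Genes with an adjusted p under 0.05 are said to have risen or fallen. The labelled cell type was checked first. Of 14 neuroendocrine markers of small cell lung cancer, 9 were in the table and all 9 averaged under 1 CPM, with a summed level of 1.17 to 1.53 CPM in si_P300 and 1.34 to 1.96 CPM in NC. Of 10 intestinal epithelial markers, 8 averaged over 10 CPM, with a summed level of 908 to 956 CPM in si_P300 and 863 to 983 CPM in NC. The defining neuroendocrine genes are thus near 0 in both groups, and the cells are called by their label only. Summed levels of the other marker lists were 46.5 to 55.1 CPM in si_P300 and 52.2 to 63.1 CPM in NC for fibroblasts, and 3.79 to 4.89 CPM in si_P300 and 1.84 to 2.21 CPM in NC for lung epithelium. The leukocyte list summed to 2820 to 4440 CPM in si_P300 and 2250 to 2440 CPM in NC, nearly all of it LYZ, while PTPRC, the pan-leukocyte gene, stayed under 1 CPM in each of the 6 libraries. Hepatocyte, breast luminal and endothelial markers summed to under 3 CPM in every library. Of 2 tested lung epithelium markers 1 rose, NAPSA (log2 fold change 1.51, edgeR adjusted p = 0.00689). Of 2 tested leukocyte markers 1 rose, LYZ (log2 fold change 0.63, edgeR adjusted p = 0.00649). Whether cells of these types had a part in the results was not tested. In bulk RNA, fewer cells of a type and less RNA per cell cannot be told apart.

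1 library stood apart. si_P300 replicate 1 was the nearest of the 3 si_P300 libraries to the NC mean in 43.9% of the genes that passed, against 29.4% for replicate 2 and 26.8% for replicate 3. It lay more than 2-fold above both other si_P300 libraries in 202 genes, against 42 for replicate 2 and 17 for replicate 3. The number more than 2-fold below both others was 80 for replicate 1, 119 for replicate 2 and 79 for replicate 3. List counts are given with and without si_P300 replicate 1, called replicate 1 from here on where no group is named. All of them are to be read beside the shares over all tested genes, 13.6% higher and 14.7% lower.

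Promoter sequences of some of the genes described further on are shown here, because they hold short motifs of factor families that drive stress and interferon response genes. Each is the 250 bases before the RefSeq transcription start (GRCh38.p14), written 5′ to 3′ on the gene's own strand, with matches of the motif named beside the gene in capitals and all other letters, matches of other motifs included, in lower case. FGF21 (chr19:48755274-48755523, plus strand) and ASNS (chr7:97872409-97872658, minus strand) hold the CARE motif of ATF4 and C/EBP factors (TGATGNAAN on either strand), and both genes fell.
FGF21: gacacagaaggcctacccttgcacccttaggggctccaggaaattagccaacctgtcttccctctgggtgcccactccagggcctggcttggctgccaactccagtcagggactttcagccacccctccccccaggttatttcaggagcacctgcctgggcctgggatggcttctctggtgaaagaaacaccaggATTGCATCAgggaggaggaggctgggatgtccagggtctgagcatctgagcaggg
ASNS: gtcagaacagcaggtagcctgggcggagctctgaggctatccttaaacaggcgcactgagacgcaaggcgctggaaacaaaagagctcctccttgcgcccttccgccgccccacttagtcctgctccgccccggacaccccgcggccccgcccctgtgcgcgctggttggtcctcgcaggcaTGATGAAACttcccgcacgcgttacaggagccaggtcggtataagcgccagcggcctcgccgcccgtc
BST2 (chr19:17405631-17405880, minus strand) and IFI6 (chr1:27672193-27672442, minus strand) hold the interferon-stimulated response element, GAAA runs with 2 bases between them, and both genes rose.
BST2: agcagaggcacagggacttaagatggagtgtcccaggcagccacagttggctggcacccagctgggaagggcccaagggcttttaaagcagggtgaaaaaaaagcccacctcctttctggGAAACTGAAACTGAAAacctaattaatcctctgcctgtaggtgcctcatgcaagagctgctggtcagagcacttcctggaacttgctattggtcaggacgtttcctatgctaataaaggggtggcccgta
IFI6: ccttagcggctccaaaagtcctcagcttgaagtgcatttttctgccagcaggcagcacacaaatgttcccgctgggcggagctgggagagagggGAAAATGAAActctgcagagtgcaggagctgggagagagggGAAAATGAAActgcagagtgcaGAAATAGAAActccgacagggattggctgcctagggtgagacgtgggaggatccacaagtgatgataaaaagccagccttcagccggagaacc
CALR (chr19:12938359-12938608, plus strand) holds the endoplasmic reticulum stress element, a CCAAT box and CCACG with 9 bases between them, and rose.
CALR: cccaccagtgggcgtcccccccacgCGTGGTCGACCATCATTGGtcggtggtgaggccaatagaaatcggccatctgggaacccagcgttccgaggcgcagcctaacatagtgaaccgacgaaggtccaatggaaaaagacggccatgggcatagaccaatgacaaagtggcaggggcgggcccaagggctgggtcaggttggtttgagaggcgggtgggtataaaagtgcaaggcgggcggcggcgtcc
HSPA6 (chr1:161524290-161524539, plus strand) and HSPA8 (chr11:123062137-123062386, minus strand) both hold the heat shock element, GAA and TTC units with 2 bases between them, and moved in opposite directions. HSPA6 also holds 2 matches of the AP-1 motif given below, left in lower case.
HSPA6: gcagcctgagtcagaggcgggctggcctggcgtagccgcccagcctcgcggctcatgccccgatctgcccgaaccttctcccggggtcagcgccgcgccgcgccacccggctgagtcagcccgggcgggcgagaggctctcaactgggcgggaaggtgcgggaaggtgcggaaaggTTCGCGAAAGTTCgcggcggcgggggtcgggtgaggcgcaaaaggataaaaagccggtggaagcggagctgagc
HSPA8: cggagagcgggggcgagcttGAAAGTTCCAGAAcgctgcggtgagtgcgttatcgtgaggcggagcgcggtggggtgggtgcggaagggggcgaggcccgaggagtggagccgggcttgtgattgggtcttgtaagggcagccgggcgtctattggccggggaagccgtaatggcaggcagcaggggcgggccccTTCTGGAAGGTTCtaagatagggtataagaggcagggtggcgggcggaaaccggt
A match is a description of the letters and not a binding site. Of 10733 tested genes with such a sequence, 2.58% held a CARE motif, against 4.4% of genes that fell and 2.71% of those that rose. The interferon element was in 3.34% of all, 2.68% of genes that fell and 4.31% of those that rose. The heat shock element was in 0.457% of all (49 genes), 0.319% of genes that fell (5 genes) and 0.625% of those that rose (9 genes). The endoplasmic reticulum stress element was in 0.149% of all (16 genes), 0.383% of genes that fell (6 genes) and 0.208% of those that rose (3 genes). The shares of these 2 elements thus rest on few genes. The AP-1 motif TGANTCA was in 6.51% of all, 8.93% of genes that fell and 5.83% of those that rose. None of these shares was tested.

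Of 13129 tested genes, 3709 passed (28.3%). These were 1783 that rose (13.6%) and 1926 that fell (14.7%) in si_P300. The 3 si_P300 libraries lay wholly above or wholly below the 3 NC libraries in 6108 genes (46.5%), of which 2989 were higher and 3119 lower. Of the 3709 genes that passed, 3609 were separated in this way, so separation of a called gene named below adds little to its call. Most changes were modest, with a median log2 fold change of 0.64 among genes that rose and -0.62 among those that fell, and 755 genes reached a log2 fold change of 1, 350 of them higher and 405 lower. Without si_P300 replicate 1, 3882 of 13262 genes passed (29.3%), 1855 higher and 2027 lower, and 3158 genes passed both with and without it. The count was 2322 without NC replicate 1 and 2191 without NC replicate 3. The even split between directions depends on scaling. When TMM was replaced by plain library sizes, 66.0% of called genes were higher (2760 higher and 1424 lower), and the median over all genes was 0.152 in place of 0.042. On log2(FPKM + 1), 62.4% were higher. By NC level, 32.3% of genes in the highest of 5 classes fell and 8.04% rose. In the lowest class, with NC means of 0 to 4.97 CPM, 2.67% fell and 13.1% rose. The NC level that sets the classes is also the base of the fold change, so the sorting itself can tilt them this way. How much it did was not tested. A fall is also hard to detect from a low NC level, so these shares do not show an effect of abundance.

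**Figure D1:**
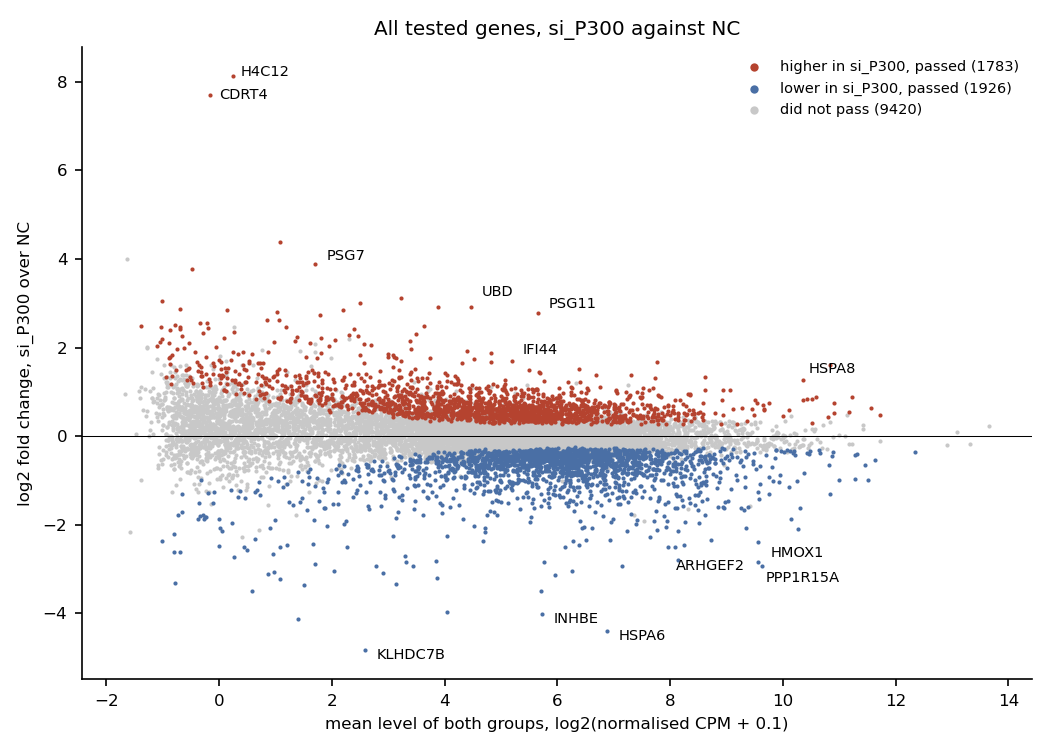
Log2 fold change of si_P300 over NC (vertical axis) against the mean level of both groups (horizontal axis, log2 of normalised CPM + 0.1) for the 13129 tested genes, with 1783 that rose in red, 1926 that fell in blue and the rest in grey. The largest falls reach lower than -4 at moderate levels, and H4C12 and CDRT4 at the top had 0 counts in all 3 NC libraries, so their plotted fold depends on a prior count.

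The target's own transcript was read first, as a check of the label. EP300 (chromosome 22, 41091786 to 41180079, plus strand, GENCODE 29 on GRCh38) had 40.1, 32.9 and 37.3 CPM in si_P300, against 41.8, 50.8 and 43 CPM in NC. Its 3 si_P300 libraries all lay under the NC libraries, but the difference of -18.6% (95% interval -32.8% to -1.32%) did not pass (log2 fold change -0.30 ± 0.13, edgeR adjusted p = 0.101), and the two-sided exact permutation test gave p = 0.1, the smallest possible with 3 against 3. Without replicate 1 EP300 did not pass either (log2 fold change -0.36, edgeR adjusted p = 0.0622). EP300 is overlapped by the antisense gene EP300-AS1 and by MIR1281, and strand counting is not stated. CREBBP, the gene of the paralogous enzyme CBP (chromosome 16, 3725054 to 3880726, minus strand), had 68.2, 74.3 and 74.2 CPM in si_P300, against 127, 126 and 132 CPM in NC. It fell by 43.7% (95% interval -52.7% to -33.2%, edgeR adjusted p = 0.000363), with no overlap between groups, and without replicate 1 the log2 fold change was -0.79. EP300 had 32.4, 39.4 and 40.6 CPM in si_CSNK2B (log2 fold change of si_P300 over si_CSNK2B -0.03 ± 0.13, 95% interval -0.30 to 0.25, edgeR adjusted p = 0.993), and CREBBP had 68.6, 83.6 and 62.7 CPM in si_CSNK2B (log2 fold change of si_P300 over si_CSNK2B 0.01 ± 0.11, 95% interval -0.24 to 0.26, edgeR adjusted p = 0.995). Neither gene passed between the 2 siRNA groups, and neither difference from NC was shown to be particular to si_P300. CSNK2B had 158, 148 and 163 CPM in si_P300, 168, 149 and 139 CPM in si_CSNK2B and 193, 168 and 185 CPM in NC, and did not pass in si_P300 against NC (log2 fold change -0.22 ± 0.10, adjusted p = 0.137).

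Of 17 lysine acetyltransferase genes, 5 fell and 1 rose, and 4 fell and 1 rose without si_P300 replicate 1. ELP3, the catalytic subunit of Elongator, fell (log2 fold change -0.71 ± 0.10, adjusted p = 0.000529), as did ATF2, a transcription factor with acetyltransferase activity (log2 fold change -0.55 ± 0.11, adjusted p = 0.00336), while KAT2A, the acetyltransferase of the SAGA complex, rose (log2 fold change 0.60 ± 0.10, adjusted p = 0.00114). KAT5, KAT7, KAT8 and KAT2B, which acetylate histones H3 or H4, did not pass. Among 23 tested partners and antagonists of p300, 5 fell and 3 rose (3 rose and 6 fell without replicate 1). The rises are near the share of 13.6% over all tested genes. CITED4, which binds the CH1 domain shared by p300 and CBP, had 23.4, 34.3 and 19.6 CPM in si_P300, against 57, 63.1 and 64.8 CPM in NC, and fell (log2 fold change -1.26 ± 0.17, adjusted p = 0.000303). The deacetylase gene SIRT1 had 47.1, 42.6 and 47 CPM in si_P300, against 70.7, 82.6 and 71.2 CPM in NC (log2 fold change -0.72 ± 0.11, adjusted p = 0.000867). It fell, with no overlap between groups. HDAC1, HDAC2 and HDAC3 lay at -0.04, 0.15 and 0.04 and did not pass. The rises were TRERF1 (not called without NC replicate 3, adjusted p = 0.0529), PCNA (not called without NC replicate 1, 2 or 3 or si_P300 replicate 2 or 3, adjusted p = 0.0581 to 0.134) and BRD9 (not called without NC replicate 1, 2 or 3 or si_P300 replicate 3, adjusted p = 0.0821 to 0.116).

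The 15 largest falls included FGF21, NUPR1, FOSB, EGR2 and HBEGF, described with their lists further on. KLHDC7B, a kelch-domain gene (chromosome 22, 50545891 to 50551023), had 0.165, 0.689 and 0.367 CPM in si_P300, against 9.33, 10.0 and 15 CPM in NC (log2 fold change -4.84 ± 0.43, adjusted p = 2.42e-05). Its si_P300 libraries were near the floor, so the size of its fall is uncertain. It passed under all 20 alternatives, with a log2 fold change of -5.413 to -1.522. INHBE, which encodes the hepatokine activin E subunit (chromosome 12, 57452323 to 57459280, GENCODE 29 on GRCh38), had 7.75, 5.03 and 5.5 CPM in si_P300, against 100.3, 87.7 and 111 CPM in NC (log2 fold change -4.02 ± 0.24, adjusted p = 2.32e-06). TRIB3, a pseudokinase that restrains AKT and ATF4, had 3.13, 0.964 and 1.65 CPM in si_P300, against 34, 32.8 and 25.4 CPM in NC (log2 fold change -3.97 ± 0.30, adjusted p = 7.89e-06). In all 3 genes every si_P300 library lay under every NC library, as the rule for the largest falls requires. ECM2, an extracellular matrix gene that overlaps CENPP, had 0.33, 0.207 and 0.245 CPM in si_P300, against 4.28, 4.21 and 5.88 CPM in NC (log2 fold change -4.14 ± 0.34, adjusted p = 1.3e-05). MMP10, the matrix metalloproteinase stromelysin 2, had 0.33, 0.827 and 0.306 CPM in si_P300, against 4.46, 4.92 and 5.53 CPM in NC (log2 fold change -3.37 ± 0.35, adjusted p = 6.08e-05). SCN4A, a muscle sodium channel, had 0.66, 0.344 and 0.122 CPM in si_P300, against 4.22, 3.79 and 2.91 CPM in NC (log2 fold change -3.22 ± 0.47, adjusted p = 0.000525). These 3 were low in both groups, with si_P300 libraries near the floor. TMEM156 fell by 3.09 on the log2 scale, and KRT16, an epidermal wound keratin, by 3.12.

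HSPA6, a strictly inducible member of the HSP70 family, had 27.7, 2.76 and 0.795 CPM in si_P300, against 177, 220.4 and 276 CPM in NC (log2 fold change -4.40 ± 0.88, adjusted p = 0.00345). Replicate 1 of si_P300 lay between the other si_P300 replicates and NC on a log scale, and without it the log2 fold change was -7.01. The same library was the nearest to NC in 11 of the 15 largest falls and 10 of the 15 largest rises.

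**Figure D2:**
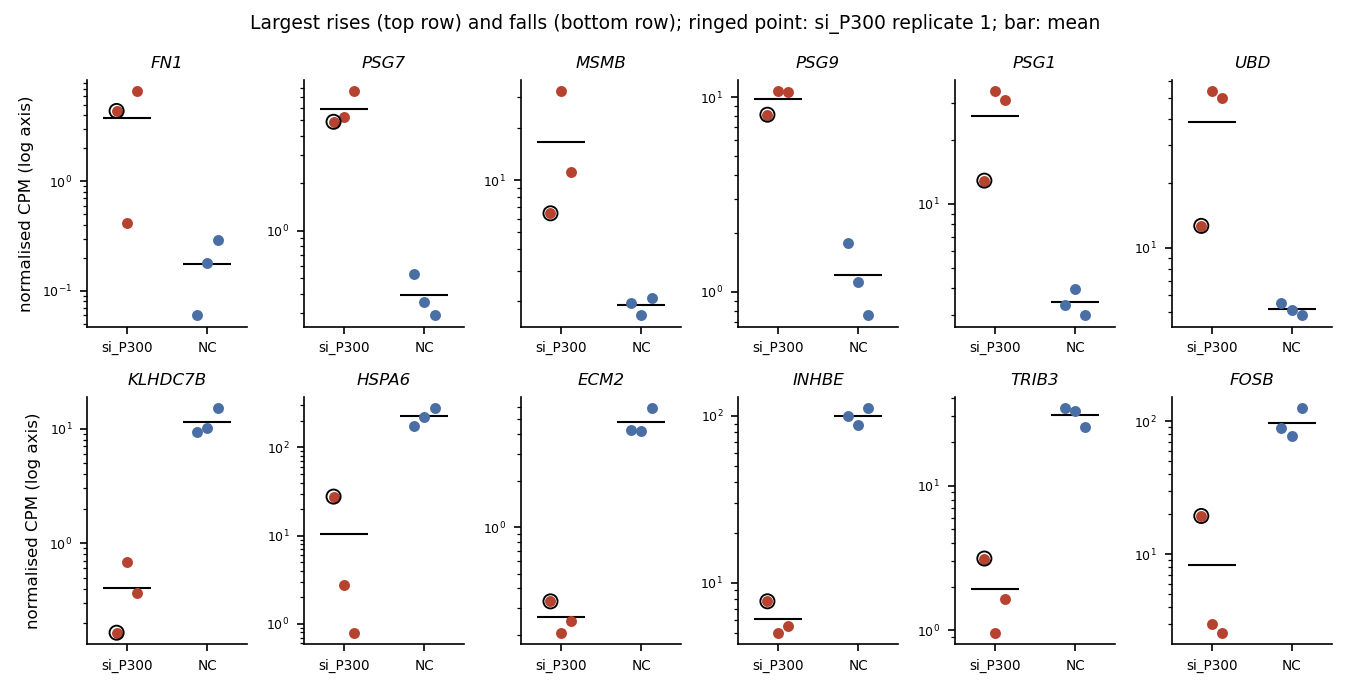
Normalised CPM (log axis) in each library for the 6 genes with the largest rises (top row) and the 6 with the largest falls (bottom row), si_P300 left and NC right, with bars at the group means and si_P300 replicate 1 ringed. Groups do not overlap in any panel, as the rule for these genes requires, and the ringed point is the si_P300 value nearest to NC in most of them.

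The genes with the lowest p-values are given next. ARHGEF2, which encodes the microtubule-bound RHOA activator GEF-H1, had 71.1, 79.8 and 71.6 CPM in si_P300, against 435, 415 and 422 CPM in NC (log2 fold change -2.52 ± 0.11, adjusted p = 5.37e-07). CD55, a cell surface inhibitor of complement, had 249, 238 and 261 CPM in si_P300, against 954, 1047 and 1158 CPM in NC (log2 fold change -2.08 ± 0.13, adjusted p = 2.32e-06). SMOX, spermine oxidase, had 38.7, 37.6 and 34.7 CPM in si_P300, against 123, 114 and 121 CPM in NC (log2 fold change -1.69 ± 0.10, adjusted p = 1.9e-06). Every si_P300 library lay under every NC library in these 3 genes, which were picked by p from the same values. LURAP1L fell by 1.95 on the log2 scale. All 10 genes with the lowest p fell.

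The integrated stress response joins kinases that phosphorylate eIF2alpha to the transcription factor ATF4, which with C/EBP partners drives genes of amino acid supply and redox balance. Of 18 tested regulators, 11 fell and 1 rose (median log2 fold change -1.01, against 0.04 over all tested genes), and 12 fell and 0 rose without replicate 1. ATF4 itself had 695, 513 and 569 CPM in si_P300, against 962, 884 and 997 CPM in NC and fell (log2 fold change -0.68 ± 0.12, adjusted p = 0.00209). Larger falls were seen in the factors that act with or after it. DDIT3, which encodes the proapoptotic factor CHOP, had 133, 33.7 and 39 CPM in si_P300, against 345, 363 and 288 CPM in NC (log2 fold change -2.27 ± 0.41, adjusted p = 0.00197), with replicate 1 of si_P300 well above the other replicates. PPP1R15A, the stress-induced eIF2alpha phosphatase subunit GADD34, had 275, 145 and 132 CPM in si_P300, against 1380.3, 1274 and 1300.2 CPM in NC (log2 fold change -2.84 ± 0.25, adjusted p = 2.54e-05). NUPR1, a stress-induced chromatin protein, had 15.4, 9.85 and 12.5 CPM in si_P300, against 102, 98.4 and 133 CPM in NC (log2 fold change -3.13 ± 0.20, adjusted p = 3.36e-06). CEBPB and CEBPG, dimer partners of ATF4, fell by 1.93 and 1.35 on the log2 scale. Each of these was separated from NC in every library. The eIF2alpha kinases were not among the falls. EIF2AK3, EIF2AK1 and EIF2AK4 (PERK, HRI and GCN2) did not pass, at -0.42, 0.02 and 0.31, although EIF2AK3 passed without replicate 1 (log2 fold change -0.50, edgeR adjusted p = 0.0326). EIF2AK2, the interferon-induced kinase PKR, rose (log2 fold change 0.39 ± 0.11, adjusted p = 0.0236, not called without NC replicate 1, 2 or 3 or si_P300 replicate 1 or 3, adjusted p = 0.0524 to 0.12).

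Secreted and stress effectors that depend on ATF4 gave the lowest median of all lists, at -1.58, with 12 of 14 tested members lower and 0 higher, and 13 lower without replicate 1 (median -1.90). FGF21, a metabolic hormone, had 2.42, 0.758 and 1.41 CPM in si_P300, against 15.2, 15.9 and 16.4 CPM in NC (log2 fold change -3.34 ± 0.36, adjusted p = 7.26e-05). SESN2, a leucine sensor of the mTORC1 pathway, had 75.2, 59.1 and 70.3 CPM in si_P300, against 151, 155 and 162 CPM in NC (log2 fold change -1.19 ± 0.11, adjusted p = 3.1e-05). CTH, which makes cysteine from cystathionine, had 31.5, 18.5 and 26.4 CPM in si_P300, against 133, 139 and 150.1 CPM in NC (log2 fold change -2.46 ± 0.20, adjusted p = 1.17e-05). In each of them replicate 1 of si_P300 was the highest of its group and still under all NC libraries. GDF15, a circulating stress hormone, and VEGFA, the angiogenic growth factor, lay at -1.32 and -1.60 and also fell, GDF15 with less certainty (not called without NC replicate 1 or si_P300 replicate 3, adjusted p = 0.0571 to 0.0699). DDIT4, an mTORC1 inhibitor, lay at -1.57 and passed only without replicate 1 (log2 fold change -2.86, edgeR adjusted p = 3.84e-05).

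Many genes of amino acid synthesis, uptake and tRNA charging fell. In synthesis, 10 of 20 genes fell and 2 rose (11 and 4 without replicate 1). ASNS, asparagine synthetase, whose promoter is shown above, had 313, 175 and 236 CPM in si_P300, against 1252, 1204 and 1335 CPM in NC (log2 fold change -2.39 ± 0.21, adjusted p = 2.54e-05). The serine and one-carbon genes PSAT1, PSPH, SHMT2, MTHFD2 and MTHFD1L fell by 1.68, 1.10, 1.40, 1.62 and 1.10 on the log2 scale, while PHGDH, the entry enzyme of serine synthesis, did not pass at -0.69 (adjusted p = 0.299). The rises were SHMT1 (not called without NC replicate 1, 2 or 3 or si_P300 replicate 3, adjusted p = 0.0511 to 0.0762) and PYCR3 (not called without NC replicate 1, 2 or 3 or si_P300 replicate 2 or 3, adjusted p = 0.085 to 0.16). In uptake, 10 of 18 transporters fell and 2 rose, with the same counts without replicate 1 and a median of -1.09. SLC7A5, the large neutral amino acid transporter LAT1, had 280.4, 318 and 389.8 CPM in si_P300, against 1019.5, 916 and 1081 CPM in NC (log2 fold change -1.61 ± 0.15, adjusted p = 2.72e-05), and its heavy chain SLC3A2 fell by 1.43. SLC7A1, a cationic amino acid transporter, had 148, 138 and 163 CPM in si_P300, against 461, 428 and 451 CPM in NC (log2 fold change -1.58 ± 0.13, adjusted p = 1.3e-05), and SLC43A1, LAT3, had 5.22, 4.82 and 6.91 CPM in si_P300, against 28.8, 25.4 and 26.8 CPM in NC (log2 fold change -2.25 ± 0.18, adjusted p = 1.3e-05). The glial-type glutamate transporter SLC1A3 and SLC7A8 rose, at 1.06 and 1.02. In tRNA charging, 13 of 23 cytosolic synthetase genes fell and 2 rose (3 rose and 13 fell without replicate 1), and 13 fell when any 1 of the 6 libraries was left out. SARS1, the seryl-tRNA synthetase, had 174, 164 and 180.5 CPM in si_P300, against 568, 516 and 569 CPM in NC (log2 fold change -1.67 ± 0.11, adjusted p = 4.03e-06). WARS1, the tryptophanyl-tRNA synthetase, had 117, 189 and 141 CPM in si_P300, against 545, 511 and 681 CPM in NC (log2 fold change -1.96 ± 0.17, adjusted p = 2.08e-05). HARS1, KARS1, VARS1 and the FARSB subunit, for histidine, lysine, valine and phenylalanine, lay between -0.07 and 0.09 and did not pass. A CARE motif was found in the promoters of 3 of 12 synthesis genes, 2 of 17 transporters, 3 of 19 synthetase genes, 4 of 16 stress response regulators and 2 of 11 ATF4 effectors that had a promoter sequence. It was also in 3 of 16 promoters of the YAP and TEAD list and 3 of 25 of the interferon list.

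The unfolded protein response matches folding and degradation capacity to the load of the endoplasmic reticulum. Of 19 genes for degradation and sensing, 11 fell and 1 rose (median -0.58), with the same counts without replicate 1. ERN1, the sensor kinase IRE1alpha, had 12.5, 12.2 and 16.1 CPM in si_P300, against 46.2, 49.7 and 44.8 CPM in NC (log2 fold change -1.78 ± 0.13, adjusted p = 5.52e-06), and its mRNA target XBP1 had 211, 227 and 235 CPM in si_P300, against 433, 397 and 466 CPM in NC (log2 fold change -0.94 ± 0.12, adjusted p = 0.000211). ATF6, the membrane-bound sensor, fell by 1.37, and HERPUD1, a scaffold of degradation, had 182, 121 and 117 CPM in si_P300, against 740.3, 742 and 639 CPM in NC (log2 fold change -2.34 ± 0.17, adjusted p = 5.28e-06). Chaperones and folding enzymes were split, with 4 of 20 higher and 4 lower (median 0.04), and 6 rose and 5 fell without replicate 1. CALR, calreticulin, had 1843, 2181 and 1934 CPM in si_P300, against 1153, 1077 and 1003 CPM in NC, and rose (log2 fold change 0.88 ± 0.14, adjusted p = 0.001). HSP90B1, the endoplasmic HSP90, had 2667, 2808 and 2699.8 CPM in si_P300, against 1755, 2086 and 1757 CPM in NC (log2 fold change 0.55 ± 0.11, adjusted p = 0.00341), and PDIA4 (not called without NC replicate 3, adjusted p = 0.0549) and MANF (not called without NC replicate 1, 2 or 3 or si_P300 replicate 2 or 3, adjusted p = 0.0681 to 0.133) also rose. The falls in the same list were DNAJB9, HSPA5 (not called without si_P300 replicate 3, adjusted p = 0.0624), DNAJC3 and ERO1B (not called without NC replicate 2 or si_P300 replicate 3, adjusted p = 0.0503 to 0.0599). DNAJB9, a co-chaperone that restrains IRE1alpha, had 23.5, 17.6 and 22 CPM in si_P300, against 116, 120.3 and 120.3 CPM in NC (log2 fold change -2.50 ± 0.12, adjusted p = 5.37e-07), and its gene overlaps PNPLA8 and THAP5. HSPA5, the chaperone BiP, had 2083, 2294 and 1979.8 CPM in si_P300, against 2809, 2981 and 2811 CPM in NC (log2 fold change -0.44 ± 0.12, adjusted p = 0.0157). The endoplasmic reticulum stress element was in 7 of 19 chaperone promoters. Higher chaperones numbered 2 to 6 and lower ones 2 to 5 when 1 library was left out, lowest for NC replicate 3 (2 higher) and si_P300 replicate 3 (2 lower).

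Heat shock genes moved in both directions, with 8 of 23 higher and 7 lower (7 and 6 without replicate 1). HSPA8, the constitutive HSP70, had 1644, 2002 and 1914 CPM in si_P300, against 726, 799 and 770.3 CPM in NC, and rose (log2 fold change 1.28 ± 0.13, adjusted p = 4.29e-05). HSPE1, the mitochondrial chaperonin partner, had 397, 482 and 390.2 CPM in si_P300, against 198, 219 and 236 CPM in NC (log2 fold change 0.96 ± 0.12, adjusted p = 0.000189). HSPA1A, an inducible HSP70, had 26.1, 6.54 and 6.91 CPM in si_P300, against 83.8, 114 and 90.0 CPM in NC, and fell (log2 fold change -2.85 ± 0.41, adjusted p = 0.000513), with replicate 1 of si_P300 higher than the others. HSPA1A and HSPA1B are near-identical copies, so reads may be split between them. BAG3, a co-chaperone, had 51.3, 49.9 and 39.5 CPM in si_P300, against 99.2, 112 and 117 CPM in NC (log2 fold change -1.22 ± 0.12, adjusted p = 5.26e-05), and DNAJB1 fell by 1.62. HSF1, the heat shock factor, fell slightly (log2 fold change -0.32 ± 0.10, adjusted p = 0.0379, not called without NC replicate 1, 2 or 3 or si_P300 replicate 1 or 3, adjusted p = 0.0591 to 0.129). The rises numbered 4, 5 and 5 without NC replicates 1 to 3 and 5 without si_P300 replicate 3. The heat shock element was in 6 of 22 promoters of these genes, rising and falling members among them.

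The NRF2 and heme response genes protect against oxidants and free iron. Of 25, 13 fell and 2 rose (14 and 2 without replicate 1). HMOX1, heme oxygenase 1, had 328, 115 and 109 CPM in si_P300, against 1499, 1596 and 1119 CPM in NC (log2 fold change -2.93 ± 0.37, adjusted p = 0.000198). TXNRD1, cytosolic thioredoxin reductase, had 323, 198 and 211 CPM in si_P300, against 717, 799.7 and 698 CPM in NC (log2 fold change -1.60 ± 0.18, adjusted p = 9.14e-05). SLC7A11, the cystine importer, had 100.4, 41.9 and 72.7 CPM in si_P300, against 234, 318 and 248 CPM in NC (log2 fold change -1.89 ± 0.25, adjusted p = 0.000287). The si_P300 replicate 1 level was the highest of its group in all 3. FTH1, the ferritin heavy chain, fell by 0.99, NFE2L2, which encodes NRF2, by 0.66, and GCLC and GCLM, the subunits of the glutathione-synthesis enzyme, by 1.09 and 0.90. NQO1, a much used NRF2 target, fell less, by 0.31 (not called without NC replicate 1, 2 or 3 or si_P300 replicate 2 or 3, adjusted p = 0.0538 to 0.172), and TALDO1 and TKT of the pentose phosphate pathway did not pass. KEAP1, the inhibitor of NRF2, lay at -0.09.

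**Figure D3:**
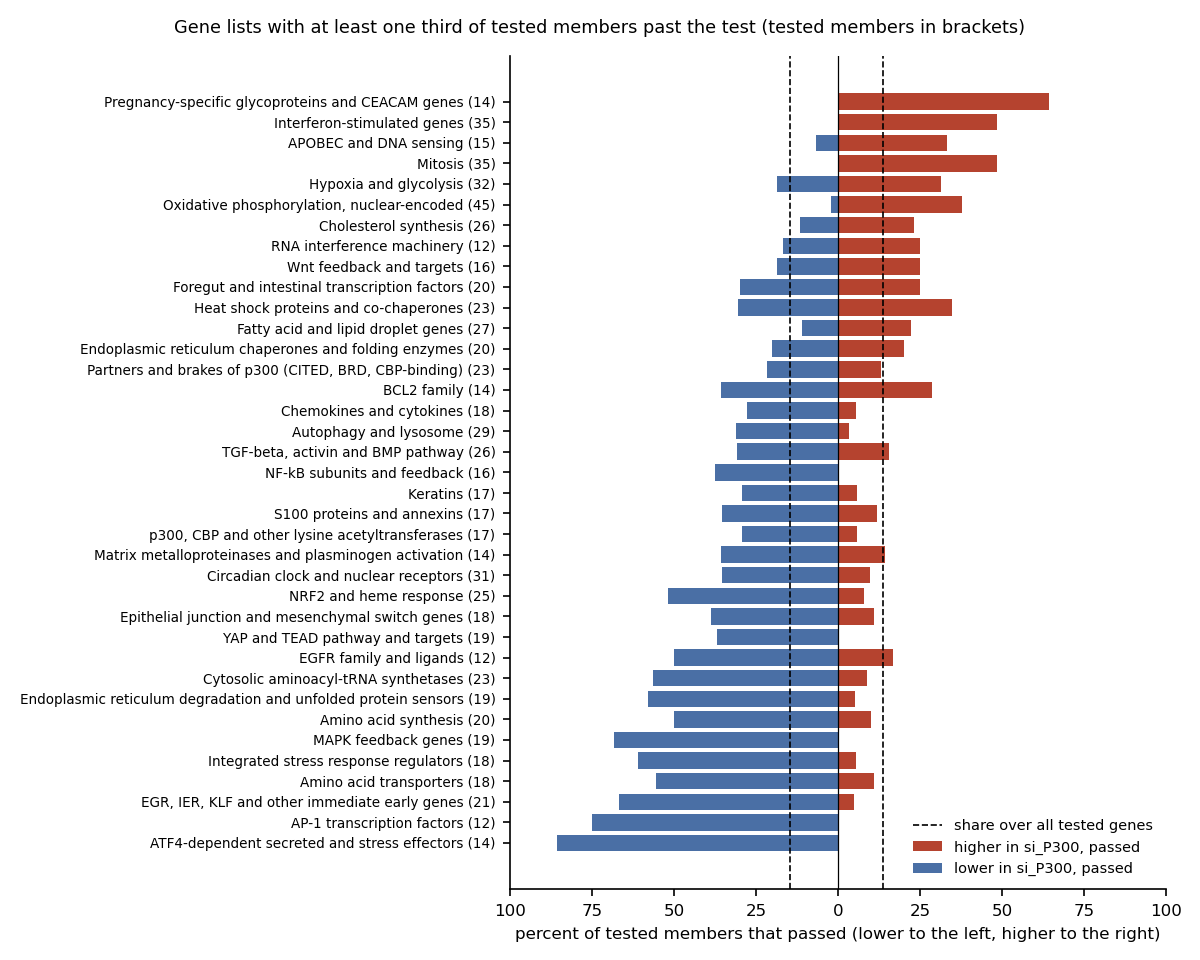
Percent of tested members that passed in each gene list with at least 1 in 3 members past the test (1 list left out), higher in si_P300 to the right and lower to the left, with the number tested in brackets and dashed lines at the shares over all tested genes (13.6% higher, 14.7% lower). Stress response, AP-1 and immediate early lists extend to the left, and the pregnancy-specific glycoprotein, interferon and mitosis lists to the right.

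Transcription factors and feedback genes downstream of growth factor signalling fell together. No member of the AP-1 list rose, and 9 of 12 fell (10 without replicate 1), with a median of -1.10. FOSB, which overlaps ERCC1, had 19.4, 2.96 and 2.57 CPM in si_P300, against 88.1, 77.5 and 124 CPM in NC (log2 fold change -3.51 ± 0.63, adjusted p = 0.00197). FOSL1 had 57, 26.3 and 20.1 CPM in si_P300, against 153, 148 and 127 CPM in NC (log2 fold change -2.04 ± 0.30, adjusted p = 0.000541). MAFF, a small MAF protein, had 47.4, 20.1 and 22.5 CPM in si_P300, against 164, 157 and 137 CPM in NC (log2 fold change -2.34 ± 0.28, adjusted p = 0.000162). In all 3 the level of si_P300 replicate 1 was at least 2 times that of each other si_P300 replicate, and under every NC library. JUNB and JUN fell by 1.24 and 1.07 on the log2 scale, JUN less firmly (not called without si_P300 replicate 3, adjusted p = 0.0545). FOS did not pass (adjusted p = 0.0713), as given with replicate 1 further on.

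Among 21 EGR, IER and KLF family and other immediate early genes, 14 fell and 1 rose, and 18 fell and 1 rose without replicate 1 (median -1.44). Counts of falls without each of NC replicates 1 to 3 were 10, 10 and 10, and without si_P300 replicates 2 and 3 they were 11 and 9, so that this count depends on the libraries used. SRF, the serum response factor, had 57.7, 48.7 and 45.1 CPM in si_P300, against 117, 108 and 114 CPM in NC (log2 fold change -1.16 ± 0.11, adjusted p = 3.1e-05). IER2 had 152, 85.9 and 89.4 CPM in si_P300, against 269.7, 248 and 262 CPM in NC (log2 fold change -1.25 ± 0.19, adjusted p = 0.000624). EGR2 had 7.09, 0.689 and 0.489 CPM in si_P300, against 27.1, 23.8 and 28.1 CPM in NC (log2 fold change -3.20 ± 0.63, adjusted p = 0.00313). MYC lay at -0.08 and did not pass, and BTG2, an antiproliferative gene, rose by 0.41 (not called without NC replicate 2 or 3, adjusted p = 0.0643 to 0.0807).

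MAPK feedback genes limit ERK signalling after activation. Of 19, 13 fell and 0 rose, also without replicate 1, with the falls between -0.86 and -2.35. DUSP6, the ERK phosphatase, had 83.9, 44.2 and 40.1 CPM in si_P300, against 255, 243 and 243 CPM in NC (log2 fold change -2.14 ± 0.22, adjusted p = 6.32e-05). SPRY4, a Sprouty inhibitor of receptor signalling, had 40.5, 31.1 and 39.5 CPM in si_P300, against 117, 106 and 94 CPM in NC (log2 fold change -1.51 ± 0.14, adjusted p = 3.17e-05). SPRED2 had 73.5, 65.9 and 79.5 CPM in si_P300, against 154, 159 and 149.8 CPM in NC (log2 fold change -1.08 ± 0.10, adjusted p = 2.81e-05). The groups were far apart in each. DUSP4, DUSP7, DUSP10, SPRY1 and SPRY2 did not pass, at -0.13 to 0.29. At the receptor, EGFR had 61.8, 46.1 and 54.8 CPM in si_P300, against 193, 216 and 187 CPM in NC (log2 fold change -1.87 ± 0.12, adjusted p = 3.65e-06). Its ligand gene HBEGF had 26.7, 9.64 and 12.9 CPM in si_P300, against 139.7, 138 and 131 CPM in NC (log2 fold change -3.05 ± 0.30, adjusted p = 4.29e-05), and TGFA had 24.3, 21.8 and 20.7 CPM in si_P300, against 40.9, 39.2 and 42.2 CPM in NC (log2 fold change -0.87 ± 0.13, adjusted p = 0.000541). Of 12 genes of the EGFR family and its ligands 6 fell, in every omission of 1 library, and 2 rose (1 without replicate 1). ERBB3 (not called without NC replicate 2 or 3, adjusted p = 0.0505 to 0.0606) and NRG4 (not called without NC replicate 1, 2 or 3 or si_P300 replicate 1 or 2, adjusted p = 0.072 to 0.141) rose, at 0.51 and 0.87, while ERBB2 lay at 0.07.

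The NF-kB list had 6 of 16 members lower and 0 higher, with a median of -0.15. NFKB1 had 33.8, 49.5 and 50.9 CPM in si_P300, against 78.4, 74 and 79.6 CPM in NC (log2 fold change -0.79 ± 0.17, adjusted p = 0.00533), and RELB had 26.7, 30.8 and 27.6 CPM in si_P300, against 41.7, 42.2 and 42.5 CPM in NC (log2 fold change -0.57 ± 0.13, adjusted p = 0.00791). Falls numbered 3, 4 and 2 without NC replicates 1 to 3, 4 and 3 without si_P300 replicates 1 and 3, and 3 with library sizes alone. NFKBIA and TNFAIP3, classical feedback targets, lay at 0.13 and 0.19 and did not pass. Among chemokines and cytokines, the neutrophil attractants CXCL8 (log2 fold change -1.28 ± 0.28, adjusted p = 0.0056), CXCL1 (log2 fold change -0.76 ± 0.14, adjusted p = 0.00199) and CXCL3 (log2 fold change -0.96 ± 0.16, adjusted p = 0.0014) fell, and CXCL10, an interferon-induced attractant of T cells, rose (log2 fold change 1.83 ± 0.54, adjusted p = 0.0249, not called without NC replicate 1, 2 or 3 or si_P300 replicate 2, adjusted p = 0.0597 to 0.104). Of these 18 genes 1 rose and 5 fell, and 5 rose and 5 fell without si_P300 replicate 1.

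Interferon-stimulated genes encode antiviral effectors, and many of them rose. Of 35 tested, 17 rose and 0 fell (median 0.66), and 24 rose and 1 fell without replicate 1 (median 0.78). BST2, tetherin, had 90.3, 126 and 94.5 CPM in si_P300, against 47.9, 45.3 and 53.2 CPM in NC (log2 fold change 1.08 ± 0.13, adjusted p = 0.000165). OAS3, which makes 2-5A activators of RNase L, had 267, 334 and 265 CPM in si_P300, against 143, 146 and 163 CPM in NC (log2 fold change 0.94 ± 0.12, adjusted p = 0.000219). IFI6, a mitochondrial and endoplasmic antiapoptotic protein, had 555, 821 and 606 CPM in si_P300, against 319.6, 292 and 346 CPM in NC (log2 fold change 1.05 ± 0.15, adjusted p = 0.00044). No si_P300 library overlapped with NC in these 3 genes. IFI44 had 37.2, 71.6 and 58.3 CPM in si_P300, against 14.7, 18.4 and 18.1 CPM in NC (log2 fold change 1.70 ± 0.25, adjusted p = 0.000569), and IFIT1, an RNA cap sensor, and the ubiquitin-like ISG15 rose by 1.37 and 0.68, ISG15 less firmly (not called without NC replicate 1 or 2, adjusted p = 0.0733 to 0.074). STAT2 rose by 0.72, while IRF9 (-0.18) and IRF7 (-0.06) did not pass. The list median over NC was 0.13 in si_P300 replicate 1, 0.91 in replicate 2 and 0.62 in replicate 3. Rises numbered 10, 11 and 16 without NC replicates 1 to 3 and 12 and 12 without si_P300 replicates 2 and 3. The interferon element was in 17 of 25 promoters of this list and 7 of 13 of the MHC class I list.

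In the antigen presentation genes of the MHC class I pathway, 5 of 16 rose and 0 fell, and 8 rose without replicate 1. PSMB9, an immunoproteasome subunit, had 13.3, 21.8 and 15.8 CPM in si_P300, against 8.79, 9.54 and 11.3 CPM in NC (log2 fold change 0.77 ± 0.19, adjusted p = 0.00977). HLA-F had 34.9, 55.9 and 39.3 CPM in si_P300, against 25.4, 23.7 and 29.3 CPM in NC, and rose (log2 fold change 0.73 ± 0.18, adjusted p = 0.012, not called without NC replicate 2, adjusted p = 0.0568). B2M, the common light chain, lay at 0.45 (adjusted p = 0.0889) and passed without replicate 1 at 0.59. The count was 2, 1 and 3 without NC replicates 1 to 3, 3 without si_P300 replicate 2 and 9 with library sizes alone. Of 15 genes of nucleic acid editing and DNA sensing, 5 rose and 1 fell (6 rose and 1 fell without replicate 1), and 3, 3 and 2 rose without NC replicates 1 to 3. APOBEC2, a muscle-enriched member of the cytidine deaminase family that overlaps OARD1, had 4.67, 7.99 and 11.1 CPM in si_P300, against 1.66, 0.889 and 0.699 CPM in NC (log2 fold change 2.86 ± 0.41, adjusted p = 0.000456), and SAMHD1, a dNTP hydrolase, had 95.5, 123 and 108 CPM in si_P300, against 71.2, 71.9 and 81 CPM in NC (log2 fold change 0.54 ± 0.13, adjusted p = 0.00799). CGAS, the cytosolic DNA sensor, had 69, 59 and 56.6 CPM in si_P300, against 89.3, 94.1 and 94.8 CPM in NC, and fell (log2 fold change -0.59 ± 0.10, adjusted p = 0.00138). UBD, the interferon- and TNF-induced ubiquitin-like FAT10, which overlaps GABBR1, had 12.6, 53.7 and 49.8 CPM in si_P300, against 5.53, 5.1 and 4.83 CPM in NC (log2 fold change 2.90 ± 0.51, adjusted p = 0.00179). The 1 si_P300 library nearest to NC was again replicate 1, and the log2 fold change without it was 3.33.

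Pregnancy-specific glycoproteins (PSG) are secreted members of the CEACAM family, normally made by the placental trophoblast. All 9 tested PSG genes (PSG3 was too low to be tested) rose, at 2.21 to 3.89 on the log2 scale, while the 5 tested CEACAM genes did not pass (-0.62 to 0.51). CEACAM1 passed without replicate 1 (0.33). Of the 14 tested PSG and CEACAM genes, 10 also rose without si_P300 replicate 3, and 10 with library sizes alone. PSG11 had 54.8, 109 and 98.5 CPM in si_P300, against 13.5, 13.6 and 11.1 CPM in NC (log2 fold change 2.78 ± 0.26, adjusted p = 3.39e-05). PSG2 had 15.7, 18.7 and 21.3 CPM in si_P300, against 3.86, 3.97 and 3.44 CPM in NC (log2 fold change 2.31 ± 0.20, adjusted p = 2.34e-05). PSG9 had 8.14, 10.7 and 10.6 CPM in si_P300, against 1.78, 1.13 and 0.757 CPM in NC (log2 fold change 3.00 ± 0.31, adjusted p = 6.13e-05). Every si_P300 library was over every NC library, and the 9 PSG calls held in each omission of 1 library. PSG7 had 4.89, 5.24 and 7.64 CPM in si_P300, against 0.535, 0.356 and 0.291 CPM in NC (log2 fold change 3.89 ± 0.39, adjusted p = 4.41e-05), and PSG1 had 12.9, 34 and 31 CPM in si_P300, against 3.33, 3.97 and 2.97 CPM in NC (log2 fold change 2.92 ± 0.42, adjusted p = 0.000465). The genes lie side by side on chromosome 19, with PSG1 starting at 42866464 and PSG9 ending at 43269530 (GENCODE 29 on GRCh38), and are so alike in sequence that 50 bp reads may be shared among them, so the level of each single member is uncertain.

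The other large rises are given one by one. MSMB, the secreted protein beta-microseminoprotein, had 6.43, 32.5 and 11.1 CPM in si_P300, against 1.96, 1.66 and 2.1 CPM in NC (log2 fold change 3.11 ± 0.57, adjusted p = 0.00222). BNIP5 had 8.96, 9.58 and 5.44 CPM in si_P300, against 1.9, 1.72 and 1.28 CPM in NC (log2 fold change 2.29 ± 0.38, adjusted p = 0.00127). RGPD1, one of several near-identical copies of a RANBP2-like gene, had 10.0, 7.16 and 8.87 CPM in si_P300, against 0.297, 1.9 and 2.68 CPM in NC (log2 fold change 2.41 ± 0.61, adjusted p = 0.0122), and its level is uncertain for that reason. All 3 had NC levels under 3 CPM. FN1, fibronectin, had 4.4, 0.413 and 6.66 CPM in si_P300, against 0.0594, 0.178 and 0.291 CPM in NC (log2 fold change 4.39 ± 1.19, adjusted p = 0.0174). Its NC libraries were near or under the limit that 3 counts set, replicate 2 of si_P300 was not far above them, and the fitted fold depends on a prior count (not called without NC replicate 1, 2 or 3 or si_P300 replicate 3, adjusted p = 0.053 to 0.0688). ALDH1A3, an enzyme of retinoic acid synthesis, had 3.08, 0.689 and 6.48 CPM in si_P300, against 0.535, 0.474 and 0.64 CPM in NC (log2 fold change 2.63 ± 0.79, adjusted p = 0.0275), and HSD3B1, a placental steroid dehydrogenase, had 0.825, 6.75 and 2.63 CPM in si_P300, against 0.357, 0.652 and 0.408 CPM in NC (log2 fold change 2.81 ± 0.74, adjusted p = 0.0153). Single libraries decided both ALDH1A3 (not called without NC replicate 1, 2 or 3 or si_P300 replicate 3, adjusted p = 0.0778 to 0.13) and HSD3B1 (not called without NC replicate 1 or 3 or si_P300 replicate 2, adjusted p = 0.057 to 0.0615).

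Cell cycle genes were counted by phase. Of 35 mitotic genes 17 rose and 0 fell (median 0.43), and 14 rose without replicate 1. BUB1, a spindle checkpoint kinase, had 197, 191 and 203 CPM in si_P300, against 98.3, 107 and 91.8 CPM in NC (log2 fold change 0.99 ± 0.15, adjusted p = 0.00071). KIF20A, a cytokinesis kinesin, had 92, 125 and 138 CPM in si_P300, against 54.1, 47.9 and 50.4 CPM in NC (log2 fold change 1.22 ± 0.19, adjusted p = 0.00082). ASPM and CENPE, of the spindle pole and kinetochore, rose by 1.25 (not called without NC replicate 3, adjusted p = 0.0535) and 1.06 (not called without NC replicate 1 or 3, adjusted p = 0.0538 to 0.0637). TOP2A, AURKB, CCNA2 and FOXM1 lay at 0.33, 0.35, 0.22 and 0.24 and did not pass. The count of rises was 7, 12 and 6 without NC replicates 1 to 3, 11 without si_P300 replicate 3, and 24 with library sizes alone. Of 34 replication genes 10 rose and 1 fell (9 and 2 without replicate 1). POLD1, the catalytic subunit of DNA polymerase delta, had 94.3, 78.2 and 86.9 CPM in si_P300, against 61, 61.3 and 57.9 CPM in NC (log2 fold change 0.52 ± 0.10, adjusted p = 0.00248), and the licensing factor CDC6 had 68, 57.9 and 61.6 CPM in si_P300, against 108, 109 and 109.6 CPM in NC, and fell (log2 fold change -0.80 ± 0.12, adjusted p = 0.000803). Rises here were 6 and 6 without NC replicates 1 and 2 and 16 with library sizes alone. In G1, the cyclin gene CCND1 had 315, 348 and 283 CPM in si_P300, against 572, 560.4 and 629 CPM in NC (log2 fold change -0.90 ± 0.11, adjusted p = 0.000168), and the inhibitor gene CDKN1B had 143, 111 and 134 CPM in si_P300, against 237, 217 and 233 CPM in NC (log2 fold change -0.83 ± 0.14, adjusted p = 0.00153). Both fell, and CDK4, CDK6, RB1 and CDKN1A did not pass. Of 20 genes of the G1 list 3 fell and 3 rose (2 rose and 4 fell without replicate 1), and 1 rose without NC replicate 1 or 2. The 3 falls and 3 rises are near the shares over all tested genes, 14.7% lower and 13.6% higher.

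In the BCL2 family, the antiapoptotic gene BCL2L1 had 291, 271 and 269 CPM in si_P300, against 784, 715 and 782 CPM in NC (log2 fold change -1.46 ± 0.11, adjusted p = 5.96e-06), and MCL1, another, had 614, 435 and 429.5 CPM in si_P300, against 1249, 1270.5 and 1156 CPM in NC (log2 fold change -1.31 ± 0.14, adjusted p = 6.13e-05). BAX and BID, proapoptotic members, rose by 0.43 and 0.39, BID less firmly (not called without NC replicate 1 or 2, adjusted p = 0.0675 to 0.091). PMAIP1 and BBC3, proapoptotic BH3-only members, fell by 1.06 and 0.96. The family as a whole had 4 higher and 5 lower of 14 (3 rose and 5 fell without replicate 1), and 1, 1, 2 and 2 higher without NC replicate 1, NC replicate 2, NC replicate 3 and si_P300 replicate 2.

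Nuclear genes of oxidative phosphorylation rose by small amounts, 17 of 45 (1 fell), with a median of 0.22, and 18 rose without replicate 1. NDUFA4 had 172, 224 and 211 CPM in si_P300, against 117, 115 and 131 CPM in NC (log2 fold change 0.74 ± 0.12, adjusted p = 0.00125). NDUFA2, of complex I, had 60.9, 73.4 and 63.7 CPM in si_P300, against 37.1, 31.1 and 34.5 CPM in NC (log2 fold change 0.95 ± 0.17, adjusted p = 0.002). ATP5MC3, of the ATP synthase rotor, had 230.5, 279 and 278 CPM in si_P300, against 177, 164 and 177 CPM in NC (log2 fold change 0.61 ± 0.11, adjusted p = 0.00212). Rises numbered 9 and 7 without NC replicates 1 and 2 and 25 with library sizes alone, so their number depends on scaling and on single controls. Of 22 genes of mitochondrial quality control 4 rose and 3 fell, in each omission of 1 library, with a median of -0.04 and a number of falls near the share over all tested genes. HSPA9, mortalin, had 581, 571 and 642 CPM in si_P300, against 1182, 1202 and 1243 CPM in NC (log2 fold change -1.02 ± 0.10, adjusted p = 3.83e-05), and LONP1, the matrix protease, had 223, 162 and 157 CPM in si_P300, against 344, 306 and 335 CPM in NC (log2 fold change -0.86 ± 0.14, adjusted p = 0.00111). ESRRG, an orphan nuclear receptor of oxidative metabolism, had 8.58, 6.48 and 11.6 CPM in si_P300, against 1.54, 2.43 and 1.63 CPM in NC, and rose (log2 fold change 2.25 ± 0.31, adjusted p = 0.000402).

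Lipid genes moved in both directions. Of 26 cholesterol synthesis and uptake genes 6 rose and 3 fell (7 rose and 3 fell without replicate 1). The falls are under the share of 14.7% over all tested genes. HMGCS1, an enzyme of the pathway, did not pass at 0.18. FASN, fatty acid synthase, had 119.8, 174 and 174 CPM in si_P300, against 102, 103 and 101 CPM in NC (log2 fold change 0.61 ± 0.13, adjusted p = 0.00617), with si_P300 replicate 1 nearest to NC. ACLY, which makes cytosolic acetyl-CoA, rose by 0.27 (not called without NC replicate 1, 2 or 3 or si_P300 replicate 2 or 3, adjusted p = 0.0766 to 0.192), and SLC33A1, the endoplasmic acetyl-CoA transporter, fell (log2 fold change -0.69 ± 0.09, adjusted p = 0.000304). The cholesterol list had 3 and 3 rises without NC replicates 1 and 2, and 12 with library sizes alone.

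Autophagy and lysosome genes had 9 of 29 lower and 1 higher (3 rose and 9 fell without replicate 1). MAP1LC3B, the autophagosome marker LC3B, had 87.9, 82.3 and 73.7 CPM in si_P300, against 336, 360.1 and 370.4 CPM in NC (log2 fold change -2.13 ± 0.11, adjusted p = 7.47e-07). TFE3, a lysosomal transcription factor, had 64.9, 56.1 and 61.8 CPM in si_P300, against 127, 131 and 139 CPM in NC (log2 fold change -1.12 ± 0.12, adjusted p = 7.83e-05), and ULK1, the initiating kinase, had 38.6, 32.6 and 29.5 CPM in si_P300, against 68, 68.6 and 62.1 CPM in NC (log2 fold change -0.98 ± 0.12, adjusted p = 0.00022). SQSTM1, the receptor p62, fell by 0.82. The lysosomal genes LAMP1, LAMP2, CTSB and CTSD did not pass, at -0.06 to 0.27. Clock and nuclear receptor genes had 11 of 31 lower and 3 higher, also without replicate 1. NR1D1, the clock repressor REV-ERBalpha, had 35.6, 27.6 and 23.6 CPM in si_P300, against 82.7, 82.5 and 71.1 CPM in NC (log2 fold change -1.44 ± 0.20, adjusted p = 0.000367). PER2 had 9.46, 9.37 and 8.56 CPM in si_P300, against 16.9, 15.6 and 18.2 CPM in NC (log2 fold change -0.89 ± 0.15, adjusted p = 0.00122), and PER1, ARNTL and CRY1 fell by 1.10, 0.98 and 0.65, while CLOCK and CRY2 did not pass.

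The YAP and TEAD list, with the Hippo pathway's effectors and their targets, had 7 of 19 lower and 0 higher, and 12 lower and 1 higher without replicate 1. AJUBA, a LIM protein that restrains LATS kinases, had 168, 127 and 182 CPM in si_P300, against 409, 379 and 395 CPM in NC (log2 fold change -1.31 ± 0.13, adjusted p = 5.43e-05). AMOTL2 had 69.6, 37.8 and 58.5 CPM in si_P300, against 138, 135 and 143 CPM in NC (log2 fold change -1.32 ± 0.21, adjusted p = 0.000851), and TEAD1 had 99.3, 69.9 and 102 CPM in si_P300, against 152, 185 and 146 CPM in NC (log2 fold change -0.83 ± 0.15, adjusted p = 0.00186). YAP1 fell by 0.89. Targets CCN1, CCN2 and ANKRD1 lay at -1.03, -1.77 and -1.64, did not pass, and passed without replicate 1 at -1.87, -3.32 and -2.85. In the TGF-beta, activin and BMP pathway, 8 of 26 fell and 4 rose (3 rose and 9 fell without replicate 1). These rises are near the share of 13.6% over all tested genes. SMAD6, an inhibitor of BMP signalling, had 25.4, 26.2 and 27 CPM in si_P300, against 11.5, 11.2 and 11.4 CPM in NC (log2 fold change 1.20 ± 0.12, adjusted p = 5.69e-05), and ID2 had 122, 77.2 and 111 CPM in si_P300, against 43, 45.1 and 56.9 CPM in NC (log2 fold change 1.10 ± 0.21, adjusted p = 0.00291). The pathway's falls numbered 5, 5 and 4 without NC replicates 1 to 3, 5 and 5 without si_P300 replicates 2 and 3, and 4 with library sizes alone. Among 16 tested Wnt feedback genes 4 rose and 3 fell (5 rose and 3 fell without replicate 1), and 1 fell without NC replicate 1, NC replicate 3 or si_P300 replicate 3. The Wnt falls are near the share of 14.7% over all tested genes. DKK1, a secreted antagonist, had 405, 531 and 758 CPM in si_P300, against 206, 225 and 239 CPM in NC (log2 fold change 1.34 ± 0.18, adjusted p = 0.000367), and AXIN2, a much used readout of the pathway, had 383, 499 and 559 CPM in si_P300, against 281, 264 and 311 CPM in NC (log2 fold change 0.75 ± 0.14, adjusted p = 0.00196). AXIN1 fell by 0.68, and CTNNB1, beta-catenin, lay at 0.01.

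Among epithelial genes, single members changed in both directions. CLDN1, a tight junction claudin, had 77.5, 71.8 and 92.3 CPM in si_P300, against 202, 205 and 213 CPM in NC (log2 fold change -1.36 ± 0.13, adjusted p = 3.46e-05), and the splicing factor gene ESRP1 had 121, 122 and 141 CPM in si_P300, against 262, 278 and 297 CPM in NC (log2 fold change -1.12 ± 0.11, adjusted p = 4.1e-05). KRT18, a simple epithelial keratin, had 1494, 1277 and 1418 CPM in si_P300, against 2174, 2069 and 2398 CPM in NC (log2 fold change -0.66 ± 0.11, adjusted p = 0.000917), while KRT8 and KRT19 lay at -0.18 and 0.09 and did not pass. CDH1, EPCAM and VIM did not pass, at 0.06, 0.18 and -0.24. S100A4 had 46.7, 39.5 and 42.9 CPM in si_P300, against 14.2, 14 and 12.4 CPM in NC, and rose (log2 fold change 1.67 ± 0.12, adjusted p = 5.28e-06). S100P had 125, 85.6 and 69.3 CPM in si_P300, against 499.5, 484 and 559.7 CPM in NC, and fell (log2 fold change -2.46 ± 0.19, adjusted p = 9.38e-06). Both were separated between groups in every library. MMP1, interstitial collagenase, had 71.8, 89.4 and 51.5 CPM in si_P300, against 454, 454 and 576 CPM in NC (log2 fold change -2.80 ± 0.19, adjusted p = 4.37e-06). Of the marker genes of the intestine, LGALS4 had 28.9, 41.7 and 35.2 CPM in si_P300, against 129, 112 and 162 CPM in NC and fell (log2 fold change -1.93 ± 0.26, adjusted p = 0.000355), VIL1, villin, had 373, 273 and 307 CPM in si_P300, against 223, 215 and 223 CPM in NC and rose (log2 fold change 0.53 ± 0.12, adjusted p = 0.00591), and CDX2 lay at 0.14. Among 20 foregut and intestinal transcription factor and TFF genes 6 fell and 5 rose, also without replicate 1. KLF5 had 374, 279 and 313 CPM in si_P300, against 618, 649 and 610.0 CPM in NC (log2 fold change -0.96 ± 0.14, adjusted p = 0.00056), and GATA6 and SOX2 rose by 0.75 and 1.05. The rises numbered 2 without any 1 of the NC libraries or si_P300 replicates 2 and 3.

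**Figure D4:**
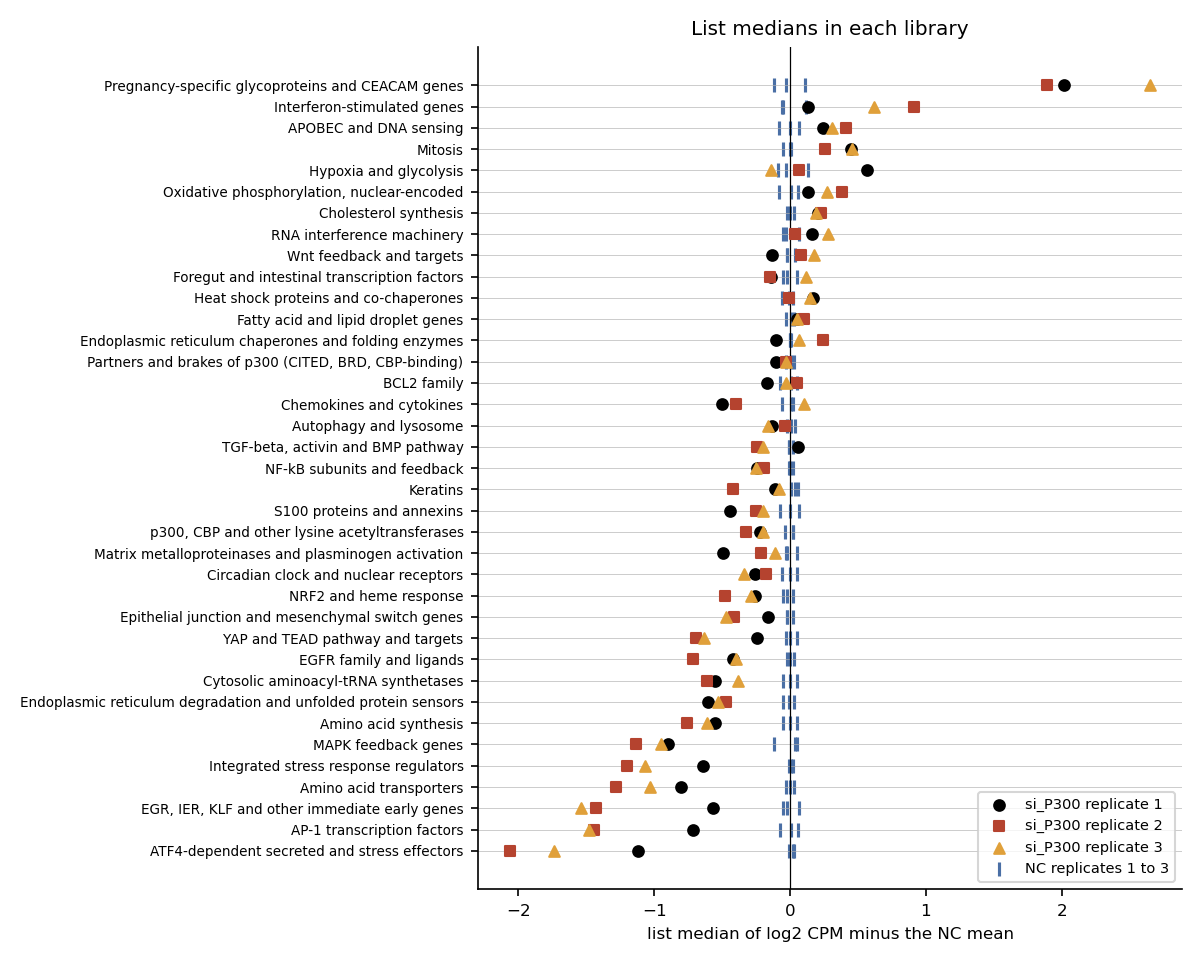
Median over each gene list of log2 CPM minus the NC mean (horizontal axis) for the same lists, with 1 symbol for each si_P300 replicate and blue ticks for the 3 NC replicates. In the AP-1, immediate early, ATF4 effector and interferon lists si_P300 replicate 1 (black) lies nearest to 0, and in the hypoxia list it lies highest, at 0.57 against 0.07 and -0.14.

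The remaining lists are given by their counts, to be read beside 13.6% higher and 14.7% lower over all tested genes. In the mitochondrial ribosomal, ribosome biogenesis, splicing and histone lists the rises and the falls were near or under these shares. In the fatty acid list 6 of 27 rose and 3 fell, among them the acyl-CoA synthetase gene ACSL5 at -0.93, with 2 to 5 rises and 1 to 3 falls when 1 library was left out (5 rose and 3 fell without replicate 1). Of 33 proteasome genes 6 rose and 0 fell (10 rose without replicate 1, 3 and 2 without NC replicates 1 and 2, and 11 with library sizes alone). Of 36 mitochondrial ribosomal protein genes 5 rose (3 without NC replicate 1 or 2 or si_P300 replicate 2 or 3) and 4 fell (2 without NC replicate 3), and 7 rose and 4 fell without replicate 1. Of 28 ribosome biogenesis genes 3 rose and 1 fell (7 rose without replicate 1). Among 17 keratins 5 fell (3 without NC replicate 3 or si_P300 replicate 3) and 1 rose, the rise being KRT20, a keratin of the gut lining, at 1.40, with the same counts without replicate 1. Of 14 matrix protease genes 5 fell and 2 rose (2 rose and 6 fell without replicate 1). Of 17 S100 and annexin genes 6 fell and 2 rose (2 rose and 7 fell without replicate 1), and 6 to 7 fell in every omission of 1 library. Of 18 junction and mesenchymal genes 7 fell and 2 rose (1 rose and 9 fell without replicate 1), and 7 to 9 fell in every omission of 1 library, with CDH3, P-cadherin, higher at 1.57. Of 12 RNA interference genes 3 rose and 2 fell (4 rose and 2 fell without replicate 1), among them AGO2, the slicer of siRNA targets, which fell by 0.56. Of 26 splicing regulators 3 fell and 2 rose (0 rose and 5 fell without replicate 1), with the cold-inducible RBM3 and CIRBP lower by 1.10 and 0.58. Of 18 histone genes 2 rose and 1 fell, of 16 genes of acetyl-CoA supply 3 rose and 1 fell, of 11 retinoid genes 3 rose, and of 7 metallothionein genes 1 rose. Without replicate 1, 4 rose and 2 fell in the acetyl-CoA list, and counts in the other 3 were the same. In the histone, acetyl-CoA, retinoid, splicing, matrix protease, junction and ribosome biogenesis lists the rises numbered 0 without NC replicate 3. They also numbered 0 without either other NC library in the histone, retinoid and splicing lists. The same held without NC replicate 1 in the acetyl-CoA, junction and ribosome biogenesis lists, and without NC replicate 2 in the matrix protease list. In all of these but the acetyl-CoA list, leaving out 1 si_P300 library also gave 0.

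Hypoxia and glycolysis genes depended on the 1 library that stood apart. With all libraries 10 of 32 rose and 6 fell (median 0.27), and 4 rose and 12 fell without si_P300 replicate 1 (median -0.03). ANKRD37, a target of hypoxia-inducible factor, had 48.5, 3.93 and 3.55 CPM in si_P300, against 21.8, 14.4 and 10.8 CPM in NC. It did not pass with all libraries (log2 fold change 0.27 ± 0.75, adjusted p = 0.816), and without replicate 1 it was lower by 2.07 (log2 fold change -2.07, edgeR adjusted p = 0.000794). ADM, adrenomedullin, had 44.1, 4.06 and 3.36 CPM in si_P300, against 11.3, 9.36 and 5.18 CPM in NC, with a log2 fold change of -1.21 without replicate 1, which passed (edgeR adjusted p = 0.0317), and of 1.01 with all libraries, which did not (edgeR adjusted p = 0.346). ANGPTL4 had 9.02, 0.827 and 1.1 CPM in si_P300, against 1.07, 0.711 and 0.233 CPM in NC, and its call (adjusted p = 0.044) rested on single libraries (not called without NC replicate 1, 2 or 3 or si_P300 replicate 1, adjusted p = 0.0706 to 0.487). Replicate 1 was thus above the other si_P300 replicates and every NC library in all 3 genes. BHLHE40, a hypoxia- and clock-regulated repressor, had 362, 60.8 and 57.4 CPM in si_P300, against 263, 219 and 139 CPM in NC, and passed as lower only without replicate 1 (-1.81). VEGFA, by contrast, had 305, 154 and 228 CPM in si_P300, against 705, 709 and 667 CPM in NC, and fell with and without replicate 1 (-1.60 and -1.86). HIF1A fell by 0.84, and the glycolytic genes GPI, GAPDH, PGAM1 and LDHA rose by 0.47, 0.47, 0.60 and 0.75 and passed with and without it, although GAPDH depended on single controls (not called without NC replicate 2 or 3, adjusted p = 0.0537 to 0.0556). The rises in this list numbered 3 and 3 without NC replicates 2 and 3.

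Single genes chosen after their values were seen show how far replicate 1 went. FOS had 196, 16.7 and 18.7 CPM in si_P300, against 305, 266 and 306 CPM in NC, so that its si_P300 replicates 2 and 3 were far under NC and replicate 1 was not (log2 fold change -1.92, adjusted p = 0.0713, and -4.05 without replicate 1, edgeR adjusted p = 3.03e-06). EGR1 had 233, 23.8 and 25.6 CPM in si_P300, against 421, 369 and 381 CPM in NC, with a log2 fold change of -2.05 (adjusted p = 0.0428) that became -3.98 without replicate 1 and did not pass without any other 1 of the libraries (not called without NC replicate 1, 2 or 3 or si_P300 replicate 2 or 3, adjusted p = 0.0753 to 0.111). CCN2 had 170.3, 17.8 and 32.7 CPM in si_P300, against 277, 245 and 237 CPM in NC. In the other direction, RSAD2, the antiviral enzyme viperin, had 10.5, 44.8 and 32.8 CPM in si_P300, against 11.3, 14.4 and 15.4 CPM in NC, and CXCL10 had 2.2, 16.3 and 7.58 CPM in si_P300, against 1.9, 2.79 and 2.56 CPM in NC. TXNIP, a glucose-regulated arrestin, had 10.0, 45.4 and 41.9 CPM in si_P300, against 40.3, 38.5 and 36.9 CPM in NC. Replicate 1 was within the NC range in CXCL10 and under it in RSAD2 and TXNIP, where the other si_P300 replicates were above it. Over the 3869 genes called without replicate 1 that were also tested with it, replicate 1 lay on the same side of NC in 92.6%, and its median deviation was 75.4% of that of the other replicates. The same shares were 95.5% and 91.5% for replicate 2 and 99.1% and 92.6% for replicate 3, each set against the other 2. Its total count and gene number (15813 genes with a count) were within the range of the other libraries or above it, and what set it apart was not tested.

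**Figure D5:**
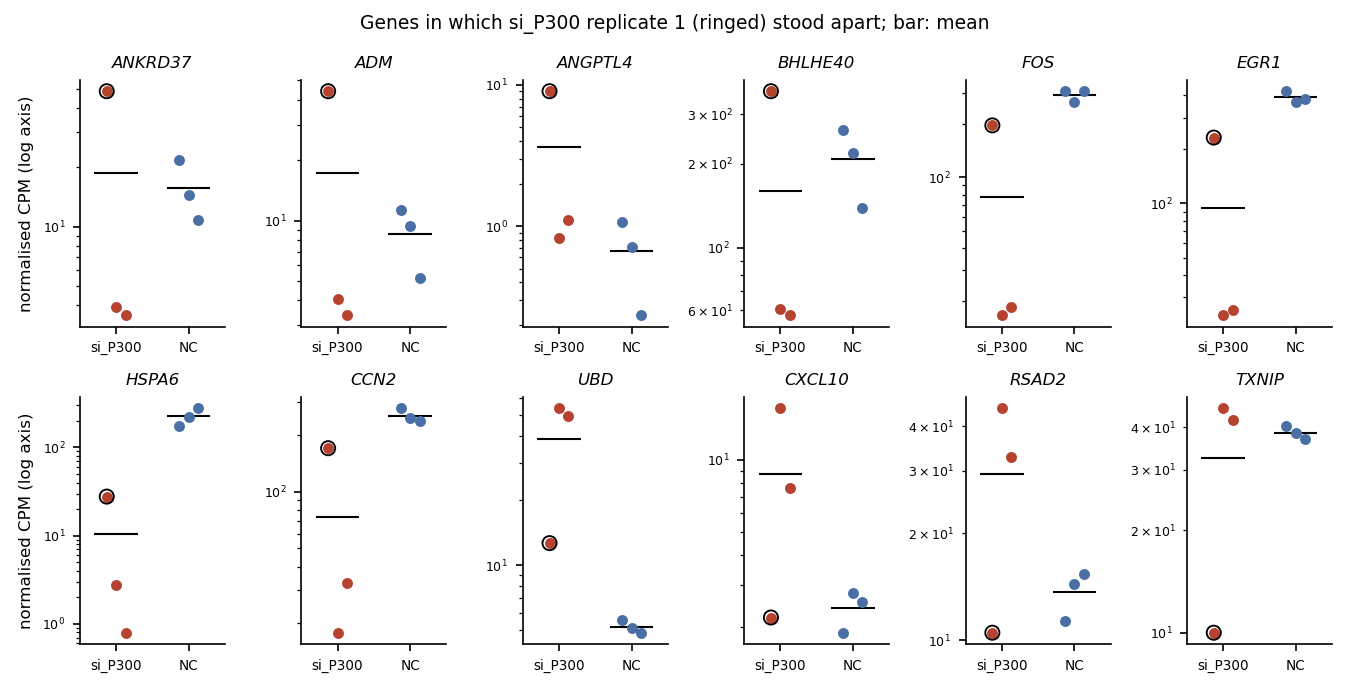
Normalised CPM (log axis) in each library for 12 genes in which si_P300 replicate 1 (ringed) stood apart from the other si_P300 replicates, si_P300 left and NC right, with bars at the group means. In FOS, EGR1, HSPA6 and CCN2 it lies between the other si_P300 replicates and NC, and in ANKRD37, ADM and ANGPTL4 it lies above both.

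Whether any of these changes is particular to si_P300 was asked by comparing it with si_CSNK2B in the same fit. No gene passed, 0 of 13129 (0.0%), and 0 members of any list passed. An unadjusted edgeR p under 0.05 was seen in 661 genes. That is near the share of 0.05 that this threshold lets through when no gene differs. DESeq2 called 8 genes in this comparison. INHBE had 7.75, 5.03 and 5.5 CPM in si_P300, against 1.81, 3.49 and 1.29 CPM in si_CSNK2B (DESeq2 log2 fold change 1.49, adjusted p = 0.000118), and both groups lay far under NC. SLC1A4, a neutral amino acid transporter, had 20.1, 19.8 and 20.9 CPM in si_P300, against 11, 12.9 and 10.4 CPM in si_CSNK2B (DESeq2 log2 fold change 0.82, adjusted p = 8.23e-05). RBBP4, a histone-binding subunit of several chromatin complexes, had 83, 61.6 and 101 CPM in si_P300, against 164, 154 and 146 CPM in si_CSNK2B, and 137, 139 and 142 CPM in NC (DESeq2 log2 fold change -0.92, adjusted p = 4.23e-05). The other 5 were ADM2, SESN2, ERAP1, ERAP2 and HSPB8, all higher in si_P300, and the edgeR adjusted p of the 8 genes was 0.149 to 0.715. Both siRNA groups share the NC libraries, and list medians are therefore given side by side only. They were -1.58 in si_P300 and -2.33 in si_CSNK2B for the ATF4 effectors, -1.10 in si_P300 and -1.46 in si_CSNK2B for AP-1, 0.66 in si_P300 and 0.57 in si_CSNK2B for the interferon list, 2.39 in si_P300 and 2.46 in si_CSNK2B for the PSG and CEACAM list, and 0.24 in si_P300 and -0.04 in si_CSNK2B for DNA replication. A comparison in which 0 genes pass does not show that the groups act alike.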

How the data were processed

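RNA was read as 50 bp BGISEQ reads. The deposited table gives, per library, estimated gene counts (expected counts), FPKM, TPM and a normalised signal, all made by the authors. HISAT, Bowtie2 and GRCh38.p13 are named per the submitters' processing notes. The counting tool, annotation and strand setting are not given in the sources used here. The deposited expected counts, 24.7% to 39.4% of them whole to within 1e-09, were rounded. The deposited FPKM and TPM values served alternatives only, the deposited normalised signal (read counts after scaling by the authors) was not used, and 12 columns of group averages were left out. All 9 libraries were fitted in R 4.3.3 with edgeR 4.0.16 (filterByExpr with a minimum count of 10, TMM, glmQLFit and glmQLFTest, prior count 2), with Benjamini-Hochberg adjusted p under 0.05 as the threshold. limma 3.58.1 and DESeq2 1.42.0 gave alternatives. The fit was tested on simulated data for si_P300 against NC, over 12986 genes: 36.4%, 88.1% and 93.9% of genes changed by 1.5, 2 and 4 times were called, and 7.05% of calls were false. The simulation changed 66 or 67 genes at each fold, in si_P300 alone, and set no library apart. In the real comparison 28.3% of genes passed, so these shares may not carry over to it. Named genes were EP300, CREBBP and CSNK2B, the 15 largest rises and 15 largest falls among called genes with no overlap between groups and, in whichever group was higher, a mean count of 50 or more (uncharacterised, antisense, small RNA and mitochondrial-copy genes left out), the 10 lowest p-values, and up to 4 called members of each list by p. Genes outside that rule were chosen after their values were seen. Of 1195 list members, 1173 were found in the table, 3 of them under another symbol. The comparison, its members and the lists were chosen with earlier results of these data known. Alternatives changed normalisation, filter, tool, unit and replicate block, and left out each library in turn. Some genes, and 1 list, are not reported here.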

Additional observations from a re-analysis of the deposited data

How the results depend on the processing

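The count of genes called in si_P300 against NC was 2191 to 3882 when 1 library was left out, with 890 to 1855 higher and 1301 to 2027 lower. The lowest counts came without NC replicate 3, and the count without NC replicate 1 was 2322. At an adjusted p under 0.01, 1900 genes passed (746 higher and 1154 lower), and 755 passed at a log2 fold change of at least 1 (350 higher and 405 lower). With library sizes alone 2760 were higher. With the replicate block 3012 passed, 1377 higher and 1635 lower, and the direct comparison with si_CSNK2B gave 0. Deviations of same-numbered si_P300 and NC libraries correlated at -0.075, -0.29 and 0.061, so the numbers are not taken as pairs. DESeq2 called 4003 genes against NC and 8 in the direct comparison, and limma-voom 3666 and 0. EP300 did not pass under any of 20 alternatives (log2 fold change -0.365 to -0.153). Of 217 called genes named by rule, 190 passed under all 20 alternatives, 27 did not under at least 1, and 0 changed direction. Depth limits transcripts under about 0.2 CPM, where 3 counts are the floor.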
